A study of Mus musculus with 7 samples.

Results

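The heat shock proteins and chaperones described here are 10 genes, Hspa1a, Hspa1b, Hsph1, Dnajb1, Hspb1, Hsp90aa1, Hspa8, Hsp90ab1, Hspa5 and Hspe1, found by gene name among the 56691 genes of the count table. They were measured in mouse skin from 3 Tuft1 knockout mice (KO; mice 2, 3 and 4), whose skin the labels call healthy looking, and from 4 wild-type mice (WT; mice 5, 6, 7 and 8). Each mouse gave 1 library of 3' tags from polyadenylated RNA (QuantSeq), and each library counts here as 1 replicate. The labels give the genotype alone, with no strain, age, sex or body site, and do not say which part of Tuft1 was deleted or whether the deletion was confined to some cells. Levels are given as CPM, counts scaled to the size of each library with TMM factors. A 3' tag count does not grow with transcript length, so CPM was not scaled by length. Annotation of 3' ends and multi-mapping can still differ between genes, so comparisons of level between genes are approximate.

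Heat shock proteins are chaperones, which bind unfolded proteins and help them to fold or hold them until they can be degraded. When proteins unfold in heat or other stress, heat shock factor 1 (encoded by Hsf1) binds heat shock elements in DNA and raises transcription of the inducible members, while the constitutive members are made at all times. In this account Hspa1a and Hspa1b (inducible HSP70), Dnajb1 (an HSP40 that delivers clients to HSP70), Hsph1 (HSP110, which exchanges the nucleotide of HSP70), Hspb1 (a small heat shock protein of keratinocytes and muscle) and Hsp90aa1 (inducible HSP90) are the stress-induced class. Hspa8 (constitutive HSP70), Hsp90ab1 (constitutive HSP90), Hspa5 (BiP, the HSP70 of the endoplasmic reticulum, which responds to the unfolded protein response) and Hspe1 (HSP10 of mitochondria) are the constitutive class. The division is not sharp, since Hspb1 and Hsp90aa1 are also made at rest and Hspe1 also responds to heat.

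Libraries held 7009237 to 9086523 counts in KO and 8490972 to 9256459 counts in WT skin. Between 12302 and 14379 genes had counts in KO and between 12403 and 14179 in WT libraries. Tuft1 itself, the targeted gene, was at 19.9, 29.1 and 17.2 CPM in KO mice 2, 3 and 4, and at 106, 104, 55.6 and 114 CPM in WT mice 5, 6, 7 and 8. Every KO mouse lay below every WT mouse, and the log2 fold change of -2.10 (SE 0.39) had an edgeR adjusted p of 0.172. Tags outside a deleted stretch would still be counted. Among the marker lists, the 12 keratinocyte markers tested had a median log2 fold change of -0.14, with 5 above and 7 below 0. They summed to 19848 to 20815.5 CPM in KO and 21277 to 25336 CPM in WT skin. These sums overlapped once Lor (15966 to 17009 CPM in KO and 15498 to 18921 CPM in WT skin) or Krt10 (15525 to 18235 CPM in KO and 16991 to 20714.5 CPM in WT skin) was left out. The 10 fat cell markers summed to 3003 to 5465 CPM in KO and 7961 to 13804.5 CPM in WT skin, with 10 of 10 having a log2 fold change below 0; the part of fat or of keratinocytes in the chaperone values was not tested. The library of KO mouse 2 stood apart in the 4 hair markers tested. They summed to 281 CPM there, against 19.6 and 33.1 CPM in KO mice 3 and 4 and 10.3 to 23.7 CPM in WT skin. Krt25 and Krt81, hair markers left out by the filter on low counts, had 1030 and 1072 counts in KO mouse 2 and 0 in every other library. Fewer cells of a type and less RNA per cell cannot be told apart in such whole-tissue samples.

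RefSeq promoter windows of 300 bases (GRCm38.p6; 250 bases before to 50 after the start site) were matched by symbol for 7 of the 10 members, all but Hspa8, Hsp90aa1 and Hsp90ab1. They are shown because the stress-induced and the constitutive members are told apart by their regulation. Capitals mark 2 facing units of the heat shock element, searched as GAANNTTC and TTCNNGAA (each reads the same on both strands, and matches may overlap), and, in Hspa5, the endoplasmic reticulum stress response element (ERSE), searched by its usual consensus on both strands.
Hspa1a (chr17:34972107-34972406, minus strand): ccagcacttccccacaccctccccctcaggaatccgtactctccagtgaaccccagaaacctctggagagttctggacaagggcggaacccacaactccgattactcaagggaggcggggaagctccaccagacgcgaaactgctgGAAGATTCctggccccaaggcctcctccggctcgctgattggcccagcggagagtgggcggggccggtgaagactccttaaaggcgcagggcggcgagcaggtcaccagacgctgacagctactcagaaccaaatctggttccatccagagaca
Hspa1b (chr17:34959189-34959488, minus strand): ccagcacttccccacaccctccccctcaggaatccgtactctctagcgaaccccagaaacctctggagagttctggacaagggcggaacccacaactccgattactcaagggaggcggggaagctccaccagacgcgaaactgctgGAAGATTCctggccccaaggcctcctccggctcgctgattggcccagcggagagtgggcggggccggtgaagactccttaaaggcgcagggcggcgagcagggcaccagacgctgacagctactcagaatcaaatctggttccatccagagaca
Hspb1 (chr5:135887669-135887968, plus strand): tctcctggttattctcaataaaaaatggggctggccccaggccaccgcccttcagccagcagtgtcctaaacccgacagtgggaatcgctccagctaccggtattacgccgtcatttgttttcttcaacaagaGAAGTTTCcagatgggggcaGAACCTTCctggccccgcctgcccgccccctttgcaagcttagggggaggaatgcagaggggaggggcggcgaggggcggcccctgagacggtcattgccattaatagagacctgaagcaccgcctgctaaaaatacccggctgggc
Hsph1 (chr5:149636287-149636586, minus strand): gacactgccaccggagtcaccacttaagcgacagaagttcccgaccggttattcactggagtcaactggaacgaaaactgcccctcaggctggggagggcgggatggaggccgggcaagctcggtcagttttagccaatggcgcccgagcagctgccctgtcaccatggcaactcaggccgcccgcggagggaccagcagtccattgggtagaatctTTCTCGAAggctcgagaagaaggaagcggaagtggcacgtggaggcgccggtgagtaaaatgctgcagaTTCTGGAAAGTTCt
Hspe1 (chr1:55087898-55088197, plus strand): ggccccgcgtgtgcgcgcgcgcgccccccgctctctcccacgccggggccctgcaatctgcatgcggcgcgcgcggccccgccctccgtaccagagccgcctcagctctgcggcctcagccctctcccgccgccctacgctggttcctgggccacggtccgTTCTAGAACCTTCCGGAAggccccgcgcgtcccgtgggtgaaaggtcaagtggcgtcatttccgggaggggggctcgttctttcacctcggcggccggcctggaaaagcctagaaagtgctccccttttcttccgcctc
Hspa5 (chr2:34771840-34772139, plus strand): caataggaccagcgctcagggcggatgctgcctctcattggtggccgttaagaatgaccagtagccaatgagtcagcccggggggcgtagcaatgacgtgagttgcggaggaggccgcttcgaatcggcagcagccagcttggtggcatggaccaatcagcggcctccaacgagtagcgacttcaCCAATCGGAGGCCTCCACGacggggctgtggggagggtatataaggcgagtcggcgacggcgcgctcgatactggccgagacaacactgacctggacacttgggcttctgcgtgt
Either heat shock pattern was present in 15.1% of the 32851 promoter windows of all genes, and the ERSE in 0.119%. Hspa1a and Hspa1b differed at 4 of 300 bases and had the same match 104 bases before the start site. Hspb1 had matches 117 and 97 bases before the start, and Hspe1 had 3 overlapping matches from 89 bases before it. In the Hsph1 window shown, 1 match lay 33 bases before the start and 2 overlapping ones lay after it. Neither of the 2 Dnajb1 windows held these letters, and Hspa5 held none of the heat shock patterns. Matches thus did not divide the 2 classes, since stress-induced Dnajb1 had none and constitutive Hspe1 had 3. A match is a description of the letters and not a measured binding site.

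None of the 10 chaperone genes was called between KO and WT skin, while all 6 stress-induced members had a log2 fold change below 0 and all 4 constitutive members had one above 0, though Hspa5, Hspa8 and Hsp90aa1, all within 0.05 of 0, changed sign under other settings, and Hspa1a and Hsp90ab1 did so with 1 mouse left out. In edgeR's quasi-likelihood test at an adjusted p below 0.05 the call was met by 0 of the 10 members, against 3 of the 12888 genes tested (0.0233%), with 0.0155% higher and 0.00776% lower in KO. The DESeq2 Wald test and limma-voom also called 0 members. At an unadjusted p below 0.05 edgeR had 1 member, Dnajb1, where 4.31% of all genes passed, and the other tools had 2 each, where 7.39% (DESeq2) and 6.56% (limma-voom) of all genes passed. All 10 members passed the filter on low counts. The median log2 fold change was -0.45 over the stress-induced members and 0.01 over the constitutive members, a difference of -0.46, and it was -0.01 over all genes tested, of which 50.5% lay below 0. These medians are descriptions and carry no test. The KO and WT levels overlapped in all 10 members, where 6.89% of all genes tested had no overlap (3.44% higher and 3.45% lower in KO).

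**Figure D1:**
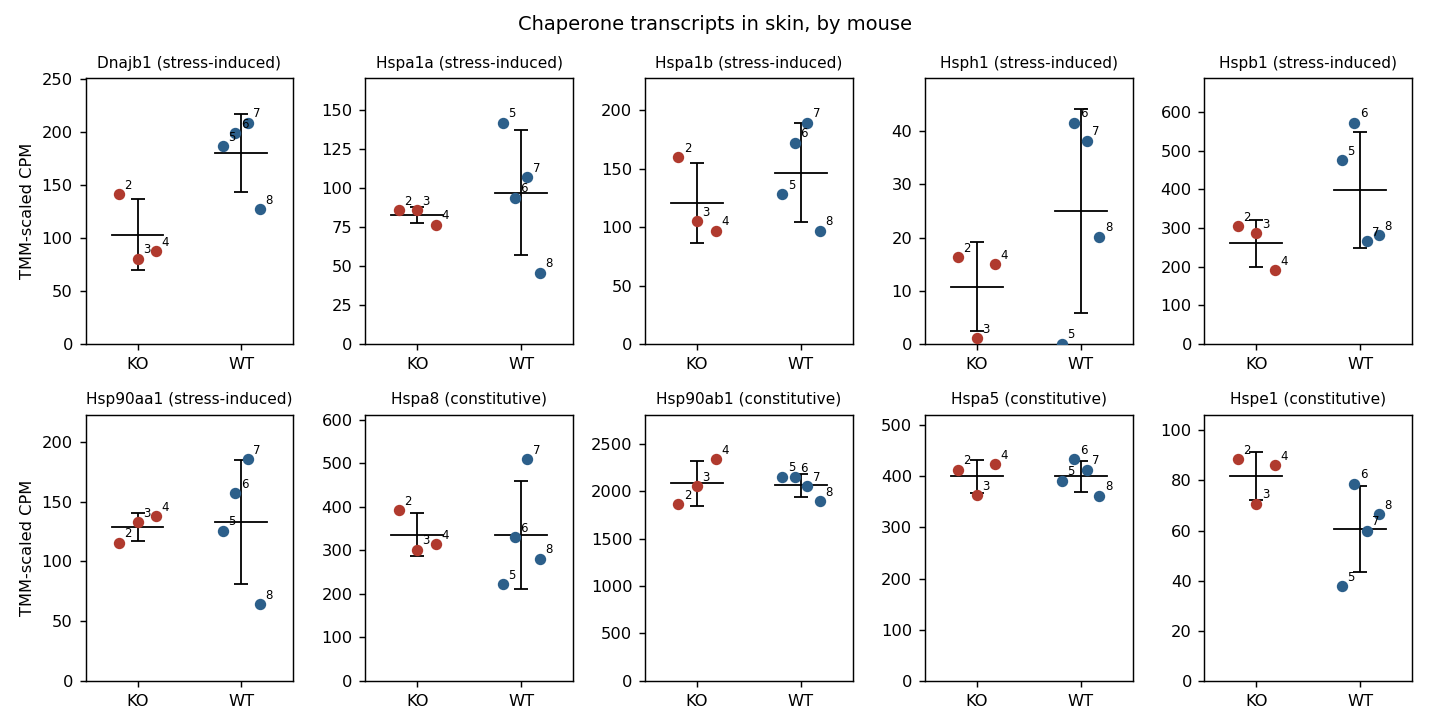
TMM-scaled CPM of the 10 members in each mouse, KO left of WT, with the mouse number beside each point and the mean and SD as bars. Dnajb1 lay between 80.6 and 141 CPM in KO mice and between 127 and 209 CPM in WT mice, while Hsp90ab1 and Hspa5 were at nearly one height in all 7 mice.

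Dnajb1 was at 141, 80.6 and 87.9 CPM in KO mice 2, 3 and 4, and at 186, 199, 209 and 127 CPM in WT mice 5, 6, 7 and 8. KO mice 3 and 4 lay below every WT mouse, and KO mouse 2 lay above WT mouse 8 alone. Its mean was 103 ± 33.2 CPM (SD, n = 3) in KO and 180.3 ± 36.7 CPM (SD, n = 4) in WT skin, which gives -0.80 on the log2 scale (SE 0.29, 95% interval -1.42 to -0.19). The edgeR test had an unadjusted p of 0.0147 and an adjusted p of 0.988. Permuting its levels over all 35 splits of the mice (exact, two-sided) gave p = 0.0857, where the smallest possible is 0.0286. Without KO mouse 2 the value was -1.10, and without KO mouse 3 it was -0.65.

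Hspa1a and Hspa1b lie side by side on the minus strand of chromosome 17 (mm39, 35188166 to 35191132 and 35175412 to 35178214). Their coding parts are nearly identical, and of 2918 windows of 50 bases in the annotated Hspa1a transcript 1716 also occur in Hspa1b. In the last 300 bases, where the 3' tags come from, 0 of 251 windows are shared, so tags of these ends can be told apart. Hspa1a was at 85.6, 85.7 and 76.4 CPM in KO mice 2, 3 and 4, and at 142, 93.6, 107 and 45.7 CPM in WT mice 5, 6, 7 and 8. The KO mice were close together inside the wide WT range, with WT mouse 8 lowest. Hspa1b was at 160.0, 105 and 96.9 CPM in KO mice, and at 128, 172, 189 and 97.0 CPM in WT mice in the same order. KO mouse 4 and WT mouse 8 were the lowest and nearly equal. The log2 fold change was -0.23 (SE 0.35, 95% interval -0.998 to 0.53) for Hspa1a and -0.28 (SE 0.30, 95% interval -0.93 to 0.36) for Hspa1b. With their counts added together it was -0.26 (SE 0.27, edgeR adjusted p = 0.9996).

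Hspb1 was at 305, 287 and 190.5 CPM in KO mice 2, 3 and 4, and at 475, 572, 265 and 281 CPM in WT mice 5, 6, 7 and 8. WT mice 5 and 6 stood above the other 5 mice, whose levels overlapped. The mean was 261 ± 61.4 CPM (SD, n = 3) in KO and 398 ± 149.9 CPM (SD, n = 4) in WT skin, or -0.61 on the log2 scale (SE 0.30, 95% interval -1.26 to 0.04, edgeR adjusted p = 0.9997, exact permutation p = 0.286). Hspb1 is made in keratinocytes and in muscle. Of the tested markers 7 of 12 for keratinocytes were below 0 (median -0.14) and 13 of 13 for muscle were above 0 (median 0.29), and their part in the Hspb1 levels was not tested.

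Hsph1, with the lowest level of the 10, had 126, 10 and 114 counts (16.3, 1.12 and 15.0 CPM) in KO mice 2, 3 and 4, and 1, 369, 311 and 163 counts (0.108, 41.5, 38.2 and 20.2 CPM) in WT mice 5, 6, 7 and 8. Each group held 1 mouse near 0, and apart from WT mouse 5 the WT mice lay above the KO mice. The log2 fold change of -1.21 had an SE of 1.32 and a 95% interval of -4.06 to 1.64, a range that holds large differences in either direction. It was -0.31 in limma-voom and ran from -1.64 without KO mouse 2 to -0.68 without KO mouse 3. Hsp90aa1 was at 116, 133 and 138 CPM in KO mice and at 126, 157, 185 and 64.2 CPM in WT mice in the same order. The KO values fell inside the WT range, again with WT mouse 8 lowest, and the log2 fold change was -0.05 (SE 0.33, 95% interval -0.75 to 0.66).

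**Figure D2:**
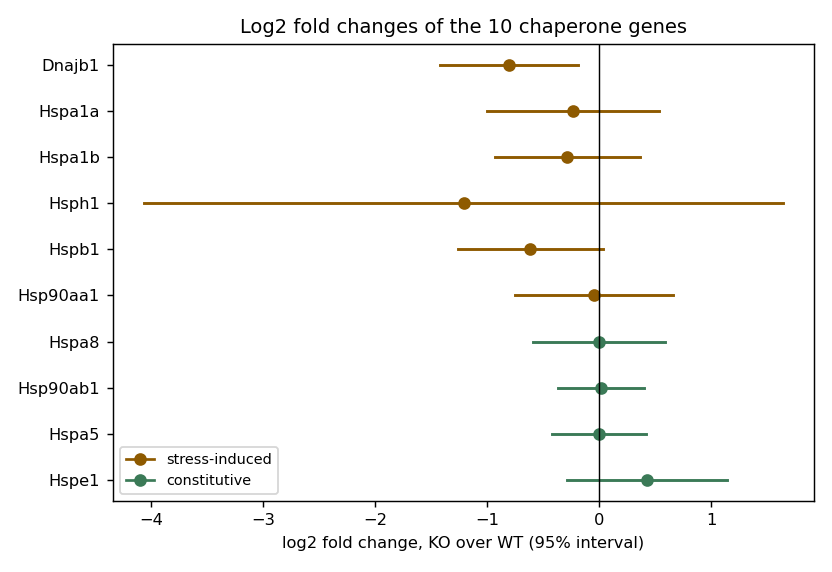
Log2 fold change of each member, KO over WT, with its 95% interval from edgeR's quasi-likelihood fit; stress-induced members are above and constitutive members below. The interval of Dnajb1 runs from -1.42 to -0.19, and that of each of the other 9 members includes 0.

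The constitutive members Hsp90ab1 and Hspa5 had the narrowest intervals of the 10. Hsp90ab1 was at 1860.1, 2052 and 2334 CPM in KO mice 2, 3 and 4, and at 2151, 2144, 2049 and 1893 CPM in WT mice 5, 6, 7 and 8. Its log2 fold change was 0.02 (SE 0.18, 95% interval -0.37 to 0.40). Hspa5 was at 413, 363 and 423 CPM in KO mice and at 391, 433, 412 and 361 CPM in WT mice in the same order. Its log2 fold change was 0.00048 (SE 0.19, 95% interval -0.42 to 0.42). For both genes the interval leaves out a change of 0.5 or more on the log2 scale in either direction, and the groups lay over each other.

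Hspa8 was at 392, 301 and 314 CPM in KO mice 2, 3 and 4, and at 222, 329.9, 509 and 281 CPM in WT mice 5, 6, 7 and 8. WT mouse 7 was the highest and WT mouse 5 the lowest of the 7, with the KO mice between them. The log2 fold change was 0.0026 (SE 0.27, 95% interval -0.59 to 0.59). Hspe1 was at 88.4, 70.7 and 86.2 CPM in KO mice and at 37.8, 78.8, 60.0 and 66.6 CPM in WT mice in the same order. KO mice 2 and 4 lay above every WT mouse and KO mouse 3 lay below WT mouse 6 alone. The mean was 81.7 ± 9.65 CPM (SD, n = 3) in KO and 60.8 ± 17.2 CPM (SD, n = 4) in WT skin, or 0.43 on the log2 scale (SE 0.33, 95% interval -0.29 to 1.14, edgeR adjusted p = 0.9997, exact permutation p = 0.114). Exons of Hspe1 overlap those of Hspd1 on the other strand, which had 2848 counts over the 7 libraries beside the 4047 of Hspe1. The overlap lies at the 5' ends of both genes (mm39, within 55127291 to 55127402), while 3' tags come from the last bases. The sources used here do not give whether counting used strand.

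The gap between the stress-induced and the constitutive class depended on how each class was summarised: it was smaller than in every KO mouse in 3 of the 4 WT mice by medians, and in 2 of 4 by means. The median log2 CPM of the stress-induced members was 7.00, 6.57 and 6.53 in KO mice 2, 3 and 4, and 7.08, 7.37, 7.55 and 6.31 in WT mice 5, 6, 7 and 8. That of the constitutive members was 8.65, 8.37 and 8.51 in KO mice and 8.20, 8.56, 8.84 and 8.32 in WT mice in the same order. The stress-induced median minus the constitutive one was -1.65, -1.80 and -1.98 in KO mice, and -1.13, -1.20, -1.29 and -2.01 in WT mice 5, 6, 7 and 8. By medians WT mouse 8 stood apart from the other WT mice, beyond the KO range. With means of log2 CPM the difference was -1.98, -2.61 and -2.34 in KO mice, and -2.18, -1.38, -1.50 and -2.13 in WT mice in the same order. By means WT mouse 5 lay with WT mouse 8 inside the KO range. These means take in Hsph1, at -1.53 log2 CPM (1 count) in WT mouse 5 and 0.44 (10 counts) in KO mouse 3. The other stress-induced members were at 6.98 to 8.89 log2 CPM in WT mouse 5, and means without Hsph1 were not computed. In WT mouse 8, 4 of the 6 stress-induced members were at their lowest WT level, and 5 of 6 were below the highest KO mouse. In WT mice 5, 6 and 7, 3, 0 and 1 of the 6 were below the highest KO mouse. Of the 4 constitutive members, 2 were at their lowest WT level in mouse 8 and 4 of 4 were below the highest KO mouse. WT mouse 5 had the same 2 constitutive counts, and in WT mice 6 and 7 3 of 4 were below the highest KO mouse. These counts did not set WT mouse 8 apart in the constitutive class. No test of these class values was made.

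**Figure D3:**
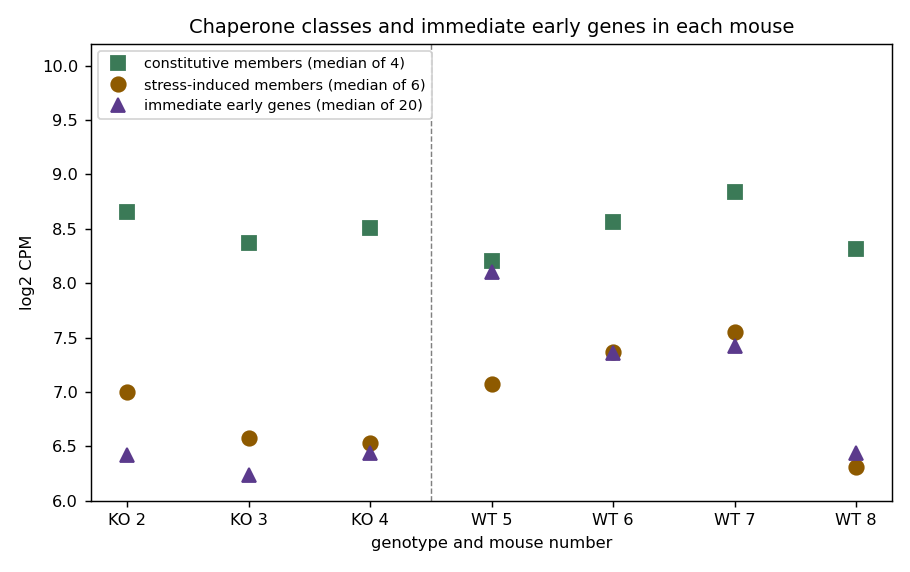
Median log2 CPM of the 4 constitutive and 6 stress-induced members and of 20 immediate early genes in each mouse, KO left of WT. The stress-induced median lay between 6.53 and 7.00 in KO mice. It was 6.31 in WT mouse 8 and 7.08 to 7.55 in the other WT mice. By means, which take in Hsph1 at 1 count in WT mouse 5, that mouse was lower than WT mouse 8 (6.01 and 6.27).

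Immediate early genes, a set induced quickly by growth signals and by handling of the tissue, were lower in the KO mice than in WT mice 5, 6 and 7. Their median log2 CPM over 20 genes was 6.42, 6.24 and 6.44 in KO mice 2, 3 and 4, and 8.10, 7.36, 7.42 and 6.44 in WT mice 5, 6, 7 and 8. Their mean was 6.49, 6.27 and 6.36 in KO mice 2, 3 and 4, and 7.89, 7.24, 7.78 and 6.52 in WT mice 5, 6, 7 and 8. WT mouse 5 had the highest immediate early mean and the lowest WT mean of the stress-induced members, 6.01. That was below 6.67 in KO mouse 2 and 6.32 in KO mouse 4, but it takes in Hsph1 at 1 count (-1.53 log2 CPM). In WT mouse 5, 3 of the 6 stress-induced members were below the highest KO mouse, Hsph1 among them. By medians WT mouse 5 was above every KO mouse in both sets (8.10 and 7.08), and WT mouse 8 was the lowest WT mouse in both. The full order of the mice differed between the 2 sets by either summary. Of the 20 genes, 15 were at their lowest WT level in mouse 8. Fos, a transcription factor of this response, was at 105, 14.2 and 126 CPM in KO mice and at 565, 288, 459 and 113 CPM in WT mice in the same order. Egr1, another such factor, was at 301, 307 and 316 CPM in KO mice and at 811, 574, 957 and 399.8 CPM in WT mice. Btg2, an antiproliferative gene, was at 51.8, 47.9 and 43.1 CPM in KO mice and at 303, 180.2, 214 and 64.2 CPM in WT mice. In this list 19 of 20 genes had a log2 fold change below 0 (median -0.84), where 50.5% of all genes tested did. At an unadjusted p below 0.05 edgeR had 10 of the 20, where 4.31% of all genes passed. The edgeR test called 0 of the 20, the DESeq2 Wald test 3 lower and limma-voom 1 lower. Over all 12888 genes these tools called 1, 79 and 15 lower, and of the 10 fat cell markers 0, 8 and 6. The part of the immediate early response in the levels of the stress-induced chaperones was not tested.

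By counted tags the members spanned a wide range of levels over the 7 libraries. Hsp90ab1, at a mean of 2069 CPM, ranked 39 among the 12888 genes tested, and it exceeded every other member in all 7 libraries. Hspa5 (399 CPM), Hspb1 (339 CPM) and Hspa8 (336 CPM) came next, with overlapping ranges: Hspa5 exceeded Hspb1 in 5 of 7 libraries, and Hspb1 exceeded Hspa8 in 2 of 7. Dnajb1 (147 CPM), Hspa1b (136 CPM), Hsp90aa1 (131 CPM), Hspa1a (90.8 CPM) and Hspe1 (69.8 CPM) followed, each overlapping the next. Hspa8 exceeded Dnajb1 in 7 of 7 libraries, without overlap. Hsph1 was last at 18.9 CPM, and was below Hspe1 in all 7 libraries although their ranges overlapped.

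The spread between mice separated Hspa5 and Hsp90ab1 from the other members. Their coefficient of variation (SD over mean) was 7.13% for Hspa5 and 7.85% for Hsp90ab1 over the 7 libraries, against a median of 29.3% over the 3485 genes tested at a mean of at least 50 CPM. Only 0.287% of these genes varied less than Hspa5 and 0.402% less than Hsp90ab1. Hspe1 (25.0%), Hspa8 (27.4%), Hspa1b (28.2%), Hsp90aa1 (28.5%) and Hspa1a (32.3%) lay near that median, and Dnajb1 (35.5%) and Hspb1 (39.4%) above it. Within genotypes, Hspa1a varied by 6.44% among the 3 KO and 41.0% among the 4 WT mice, and Hsp90aa1 by 9.03% among KO and 39.0% among WT mice. Hsph1, below that level, varied by 85.7%.

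**Figure D4:**
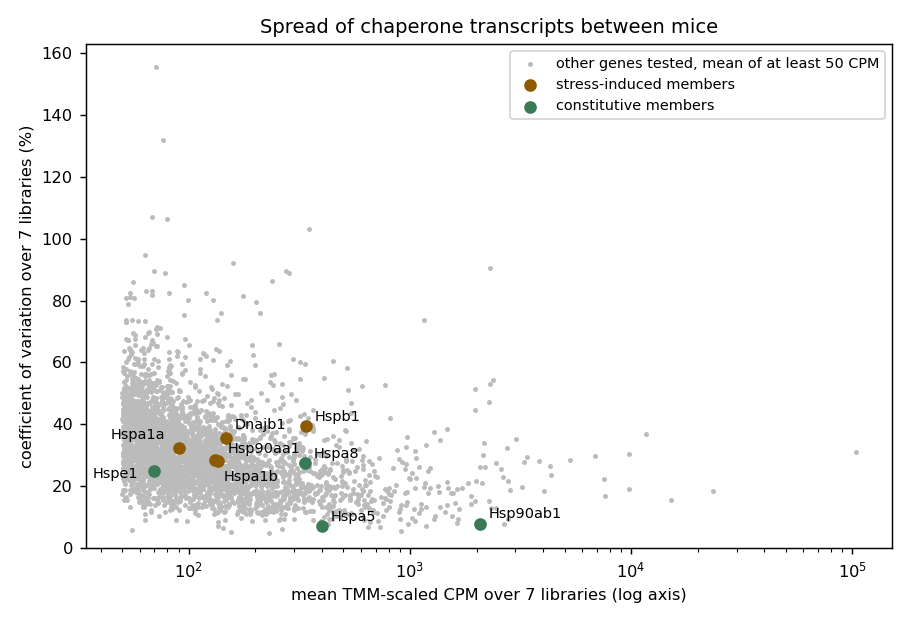
Coefficient of variation over 7 libraries against mean level (log axis) for genes tested at a mean of at least 50 CPM, with 9 of the 10 members in colour. Hspa5 and Hsp90ab1 lie at the lower edge of the cloud, at 7.13% and 7.85%.

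Pairs of members were compared over the 7 mice, which share their libraries and scaling. Of 15 pairs within the stress-induced class 13 had a Pearson's r above 0, with a median of 0.45. The 6 constitutive pairs had a median of 0.38, and the 24 mixed pairs one of 0.20. The highest value of the 45 pairs was that of Hspa1b and Dnajb1, with Pearson's r = 0.81 (exact permutation p = 0.0373, adjusted p = 0.669) and Spearman's rho = 0.86 (exact permutation p = 0.0238, adjusted p = 0.741). It was 0.61 without WT mice 6 and 7, the farthest from the median of Hspa1b, and 0.92 for deviations from the genotype means. No pair passed adjustment over the 45. Hspa1a and Hspa1b had r = 0.54 (exact permutation p = 0.218, adjusted p = 0.669) and rho = 0.68 (exact permutation p = 0.110, adjusted p = 0.741), and r was 0.84 without WT mice 5 and 8.

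The other genes of the chaperone system, in 8 lists, were not called either, by edgeR in 0 of 99 tested genes of 103 listed. The DESeq2 Wald test and limma-voom called 0 as well, and at an unadjusted p below 0.05 the tools had 6 (edgeR), 7 (DESeq2) and 8 (limma-voom). That is 6.06% against 4.31% of all genes in edgeR, 7.07% against 7.39% in DESeq2 and 8.08% against 6.56% in limma-voom. There were 51 genes above 0 and 48 below, with a median log2 fold change of 0.01. The KO and WT levels did not overlap in 9 of the 99 (9.09%, against 6.89% of all genes), 7 of them higher in KO skin and 2 lower. All but Ern1, a sensor of the unfolded protein response named here after its values were seen (12.5 to 15.9 CPM in KO and 0.123 to 11.1 CPM in WT mice), are described with their lists.

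The genes named from each list below are the 3 with the smallest edgeR p, so a permutation p given for them is a description. Of the heat shock factors and their regulators, 3 of 3 tested genes had a log2 fold change above 0 and 0 were called. Hsf2, heat shock factor 2, was at 176, 162 and 251 CPM in KO mice 2, 3 and 4, and at 149.98, 115, 109 and 124 CPM in WT mice 5, 6, 7 and 8. Each KO mouse lay above the 4 WT mice, or 0.66 on the log2 scale (SE 0.25, edgeR adjusted p = 0.9997, exact permutation p = 0.0286). Hsf1 was at 32.5, 88.4 and 71.9 CPM in KO mice and at 61.8, 20.3, 12.6 and 38.2 CPM in WT mice in the same order, and its groups overlapped. Hsbp1, which encodes a protein that binds heat shock factor 1, had a log2 fold change of 0.11 (SE 0.28).

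Among 11 HSP90 co-chaperones, 8 were above 0 (median 0.07). Fkbp4, an immunophilin that works with HSP90 on steroid receptors, was at 158, 198 and 176 CPM in KO mice 2, 3 and 4, and at 111, 115, 52.2 and 109 CPM in WT mice 5, 6, 7 and 8. Its groups did not overlap, and the difference on the log2 scale was 0.87 (SE 0.30, edgeR adjusted p = 0.965, exact permutation p = 0.0286), the smallest adjusted p of the 99. Ppid (cyclophilin 40) was at 0.60 (SE 0.45) and Chordc1 at 0.28 (SE 0.33) on the log2 scale. Of 20 HSP70 and HSP40 partners tested, 12 were below 0 (median -0.25). The partner with the smallest p was Hspa12a, a distant HSP70 relative, at 10.5, 13.9 and 25.8 CPM in KO and 56.0, 39.4, 20.7 and 62.0 CPM in WT mice (log2 fold change -1.41, SE 0.60). Its groups overlapped in KO mouse 4 and WT mouse 7. Dnajb4, another HSP40, stood at -0.76 (SE 0.42) on the log2 scale, and St13, which binds HSP70, at 0.35 (SE 0.24).

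**Figure D5:**
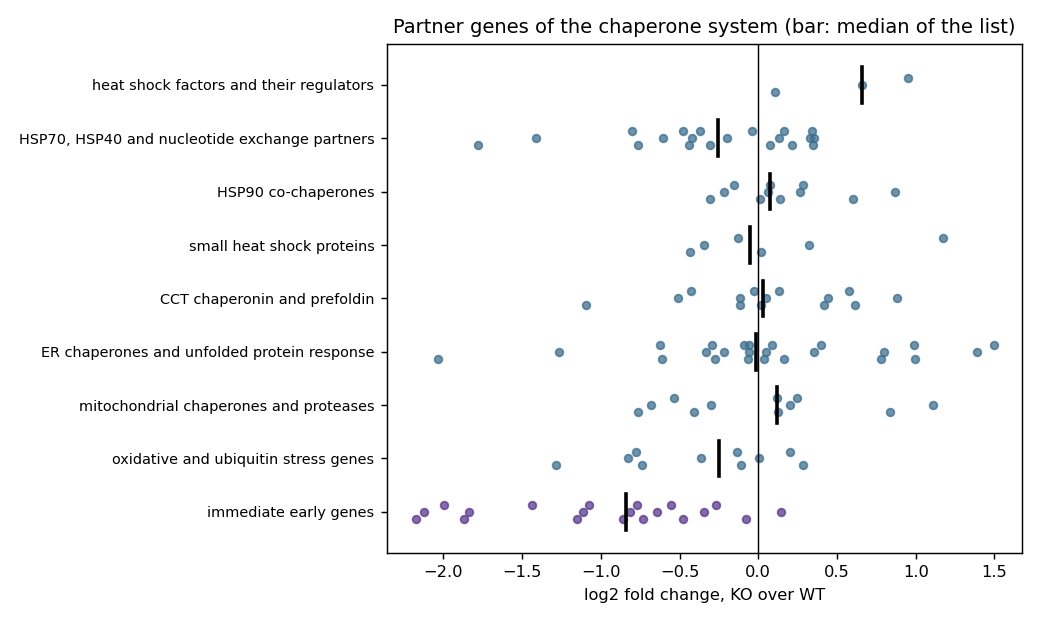
Log2 fold change, KO over WT, of the tested genes in 8 lists of the chaperone system and in the immediate early genes; each point is a gene and each bar the median of its list. Medians of the 8 lists run from -0.25 to 0.66, and that of the immediate early genes is -0.84.

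The cytosolic chaperonin CCT and prefoldin, which fold actin and tubulin, had 8 of 14 genes above 0 (median 0.03). Pfdn2, a prefoldin subunit, was at 60.7, 76.4 and 97.5 CPM in KO mice 2, 3 and 4, and at 47.4, 42.2, 50.2 and 30.0 CPM in WT mice 5, 6, 7 and 8 (log2 fold change 0.88, SE 0.35). Cct2, a chaperonin subunit, was at 154, 136 and 139 CPM in KO mice and at 73.3, 133, 92.9 and 73.9 CPM in WT mice in the same order (log2 fold change 0.61, SE 0.28). In both genes the KO mice lay above the WT mice, by little over WT mouse 6 in Cct2. Cct3 was at 0.44 (SE 0.29) on the log2 scale, with overlap.

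Of the 24 genes of the endoplasmic reticulum and its unfolded protein response, 12 were above and 12 below 0 (median -0.01). Canx, which encodes the lectin chaperone calnexin, was at 194, 214 and 259 CPM in KO mice 2, 3 and 4, and at 189, 134, 191 and 162 CPM in WT mice 5, 6, 7 and 8, without overlap (log2 fold change 0.40, SE 0.23). Pdia3, a disulfide isomerase that works with calnexin, was at 37.4, 55.7 and 44.3 CPM in KO and at 8.29, 26.8, 32.0 and 24.8 CPM in WT mice, also without overlap (log2 fold change 1.00, SE 0.56). Exons of Pdia3 overlap Catsper2 on the other strand, which had 227 counts beside its 1899. Atf6, a sensor of the response, had 168, 60 and 2 counts in KO mice and 573, 232, 198 and 362 counts in WT mice (-2.03 on the log2 scale, SE 1.01). Hspa5, a target of this sensor, was at a log2 fold change of 0.00048, as given above.

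Mitochondrial chaperones and proteases had 6 of 11 genes above 0 (median 0.12). Lonp1, the Lon protease of the mitochondrial matrix, was at 74.3, 42.0 and 53.3 CPM in KO mice 2, 3 and 4, and at 106, 82.3, 108 and 87.7 CPM in WT mice 5, 6, 7 and 8, without overlap (log2 fold change -0.76, SE 0.31). Hspd1 (HSP60) was at -0.53 (SE 0.45) and Dnaja3 at -0.68 (SE 0.64) on the log2 scale, and exons of both overlap other genes with counts. Small heat shock proteins had 3 of 6 above and 3 below 0 (median -0.05). Hspb8, which works with Bag3 in muscle and skin, was at 904, 1038 and 561 CPM in KO and at 1177, 786, 1362 and 916 CPM in WT mice, with overlap (log2 fold change -0.35, SE 0.26). Hspb7 was at -0.43 (SE 0.38) and Hspb3 at 1.17 (SE 1.35) on the log2 scale. Both are known from muscle, whose 13 tested markers summed to 19451 to 28955 CPM in KO and 18570 to 24831 CPM in WT skin, with 13 of 13 above 0, and the part of muscle was not tested. Oxidative and ubiquitin stress genes had 3 of 10 above 0 (median -0.25), with Ubb, a polyubiquitin gene, at 0.20 (SE 0.20), Ppp1r15a at -0.74 (SE 0.63) and Gadd45b at -1.29 (SE 1.18) on the log2 scale.

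The genes whose log2 CPM over the 7 libraries was most like the mean of Hspa1a, Hspa1b, Dnajb1 and Hsph1 were Smoc2, Actr10, Tra2a, Ergic1 and Lce1j, with Pearson's r from 0.89 to 0.94. They were chosen as the highest of 3401 genes, so these values are descriptions without a test. The mean followed Hsph1 (r = 0.91), whose log2 CPM spanned 6.91, more than Hspa1b (r = 0.71), Dnajb1 (r = 0.57) or Hspa1a (r = -0.081), which spanned 0.96 to 1.63. Smoc2, the highest, which encodes a matricellular protein, was at 236, 117 and 185 CPM in KO mice 2, 3 and 4, and at 166, 269, 259.8 and 189.98 CPM in WT mice 5, 6, 7 and 8. As in Hsph1, KO mouse 3 was the lowest of its group and WT mouse 5 the lowest of the WT mice.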

How the data were processed

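Polyadenylated RNA of skin from 7 mice was sequenced from 3' tags (QuantSeq), per the labels' protocols. The authors deposited raw counts per gene, with exon coordinates (mm39), and a filtered table of log2 CPM values. Tools listed in the submitters' processing notes, without their roles, are edgeR 3.36.0, featureCounts, Subread 2.0.3, GATK 4.2.4.0 and STAR, with the build mm39. Strand and multi-mapping settings are not given in the sources used here. All 90678 deposited log2 values were recovered from the counts, TMM-scaled with prior count 2 (tolerance 1e-09). That table served only for this check and for an alternative set of genes.

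Counts were tested in edgeR 4.0.16 (R 4.3.3) with filterByExpr (minimum count 10), TMM and the quasi-likelihood F test, KO over WT, with Benjamini-Hochberg adjustment over 12888 genes of the 19128 with any count. No count row lacked a gene. Standard errors were derived from the F statistic. Levels of single genes were permuted over all 35 splits of the mice (exact, two-sided). DESeq2 1.42.0 and limma 3.58.1 (voom) served as alternatives, with other scalings, filters and each mouse left out. The procedure was also run on simulated data, with changes larger than the log2 fold change of any member. That run does not show whether differences of the members' size would be called. The labels do not say that the mice came from separate litters. The p-values treat the mice as independent, which could not be checked.

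The members, their 2 classes and all lists were chosen with earlier results of these data known. Named were the 10 members, Tuft1, the 3 genes with the smallest p in each chaperone list, Fos, Egr1 and Btg2, and the 5 genes most like the mean log2 CPM of Hspa1a, Hspa1b, Dnajb1 and Hsph1. Ern1, and the ratios in the closing section, are outside this rule.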

Additional observations from a re-analysis of the deposited data

Results flagged for a closer look

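Among 41 sets of 4 WT values (log2 CPM), 6 had 1 mouse that stood well away from the remaining 3. About 1 set in 20, or 2.05 here, would by chance. Hsph1 was at -1.53 in WT mouse 5, where it had 1 count, against 4.35 to 5.38 in the other WT mice. Tuft1 was at 5.80 in WT mouse 7, against 6.70 to 6.84. Hspb7 was at 5.12 in WT mouse 6, against 6.18 to 6.25, and Hspb3 was at -2.07 in the same mouse, where it had 0 counts, against 3.359 to 3.82. Fkbp4 was at 5.71 in WT mouse 7, against 6.78 to 6.85, and its log2 fold change was 0.66 without this mouse. Chordc1 was at 7.10 in WT mouse 7, against 6.06 to 6.17.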

How the results depend on the processing

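No paired analysis was possible because KO and WT mice have no number in common. Calls of members were 0 under all 14 alternatives, and the smallest adjusted p was 0.163, for Dnajb1 in the DESeq2 Wald test. Over all genes, 44 were called higher and 79 lower in KO by the DESeq2 Wald test, 7 and 15 by limma-voom, and 34 and 42 without a filter on low counts; with 1 mouse left out 0 to 1 were called higher and 0 lower. The cause of these differences was not tested. The median log2 fold change of the members, -0.14, ran from -0.36 to -0.061 with 1 mouse left out. The difference between the classes, -0.46, ran from -0.67 without KO mouse 2 to -0.31 with 1 mouse left out, and was -0.64 to -0.33 otherwise, including other class limits. Of 140 member values 119 kept their direction. Hspa5 was at -0.0021 with upper quartile factors, -0.0047 in limma-voom, -0.0032 without the filter and -0.0068 without mitochondrial transcripts. Hspa8 was at -0.0012 without the filter and -0.0061 without mitochondrial transcripts, and Hsp90aa1 at 0.047 in limma-voom. With 1 mouse left out Hspa8 ran from -0.15 to 0.28, Hspa5 from -0.048 to 0.064, Hsp90ab1 from -0.079 to 0.087, Hsp90aa1 from -0.28 to 0.15 and Hspa1a from -0.47 to 0.0080, so that 5 of 6 stress-induced members lay below 0 without KO mouse 2 or WT mouse 5, 6 or 7. Hsph1 ran from -1.64 to -0.68 with 1 mouse left out and was -0.31 in limma-voom. With 1 mouse left out Dnajb1 ran from -1.10 to -0.65, Hspa1b from -0.54 to -0.14, Hspb1 from -0.76 to -0.39 and Hspe1 from 0.26 to 0.57, none changing direction. Hsph1 had 1 and 10 counts in the 2 deepest libraries, so its value there rests on few counts.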

Other observations

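Hspe1 and Hspd1 encode HSP10 and HSP60, which form the folding chamber of mitochondria, and they are transcribed away from each other from chromosome 1 (mm39), Hspe1 from 55127291 on the plus strand and Hspd1 from 55127402 on the minus strand. The ratio of Hspe1 to Hspd1 within a library, which does not depend on scaling between libraries, was 1.65, 2.15 and 2.90 in KO mice 2, 3 and 4, and 1.23, 1.03, 1.45 and 0.876 in WT mice 5, 6, 7 and 8. The groups did not overlap (exact two-sided permutation p = 0.0286, the smallest possible), but the pair was picked after its values were seen and neither gene was called. The ratio of Hsp90aa1 to Hsp90ab1 was 0.0622, 0.0648 and 0.0591 in KO mice, and 0.0585, 0.0733, 0.0905 and 0.0339 in WT mice in the same order, so that the KO mice lay inside the WT range (exact permutation p = 0.914). Among 3 ratios computed, that of Hspa1b to Hspa1a was 1.46 ± 0.36 (SD, n = 3) in KO and 1.66 ± 0.53 (SD, n = 4) in WT skin.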
